A study of Mus musculus with 7 samples.

Results

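The Eph receptors are a family of receptor tyrosine kinases of the cell surface, and 10 of their genes were followed here: Epha3, Epha4, Epha5, Epha6, Epha7, Epha8 and Epha10 of class A and Ephb1, Ephb2 and Ephb6 of class B. They were chosen by gene symbol, as 10 of the 43626 mouse genes in the deposited table, and all 10 passed the filter on low values. Bulk RNA sequencing covered 4 libraries of the genotype labelled hDISC1AA/+ and 3 of wild type (WT), all from prefrontal cortex of C57BL/6J males at 8 weeks of age. The study is about the phosphorylation of DISC1, a scaffold protein of neurons, and the polarity of cortical neurons. The labels do not say how the allele was made, and they do not say that each sample came from a separate mouse, so the p-values measure the spread between these 7 libraries, which may in part be technical.

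Eph receptors bind ephrins on the membrane of a neighbouring cell. Class A receptors bind mainly the ephrin-A ligands, which are anchored by a lipid, and class B receptors mainly the transmembrane ephrin-B ligands, with Epha4 known to bind both. Binding switches on the receptor's kinase and turns growing axons away or remodels dendritic spines, and the family is best known in the cortex for mapping of axons and for excitatory synapses. The kinase needs an aspartate in its catalytic loop, and EphA10 and EphB6 are known as family members without kinase activity.

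The catalytic loop is shown because a member that gave a large share of the family's transcripts in this tissue, Ephb6, differs from the others there. Each line holds 9 codons of the coding sequence in GENCODE M21 (GRCm38), 5′ to 3′, with the codon at the place of the catalytic aspartate in capitals. The codons GAC and GAT encode aspartate.
Epha3: caccggGACcttgctgctcgcaacatc
Epha4: catcgaGACctggctgccaggaacatc
Epha5: catagaGACcttgctgctagaaacatc
Epha6: catcgaGATcttgccgcgaggaacata
Epha7: cacaggGACcttgcagcgcgcaacatc
Epha8: caccgtGACctggctgcccgcaatgtc
Epha10: caccggGGCcttgcagcccgccgagtg
Ephb1: caccggGACctggctgctagaaacatt
Ephb2: caccgtGACcttgctgctcgaaacatc
Ephb6: caccgaGCActctcggcccgaagtgtg

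Of the 10 genes, 8 carry an aspartate codon at this place. Epha10 has GGC and Ephb6 has GCA, neither of which encodes aspartate. The stretch of Ephb6 lies in exon 14 of 18 at chr6:41618664-41618690 on the plus strand, and that of Epha10 in exon 11 of 15 at chr4:124914018-124914044 on the plus strand, in a transcript model without its start. The stretch of Epha4 lies in exon 13 of 17 at chr1:77382959-77382985 on the minus strand, and that of Ephb2 in exon 12 of 16 at chr4:136659659-136659685 on the minus strand.

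The libraries held 33512557 to 36005116 reads assigned to genes in hDISC1AA/+ and 34572903 to 63845254 in WT, where replicate 1 was the deepest. For 1 hDISC1AA/+ library the column name matched none of the sample titles, and it appears below as the unnumbered library. Levels are the authors' normalized counts, that is, reads divided by 1 size factor per library. Markers of excitatory cortical neurons were high in every library, with 55502 to 78478 normalized counts in hDISC1AA/+ and 57359 to 68748 in WT for Slc17a7, the vesicular glutamate transporter of these cells. Libraries nevertheless stood apart. In WT replicate 1 the summed level of 8 oligodendrocyte markers was 137560, against 39161 to 45688 in hDISC1AA/+ and 41422 and 50618 in the other WT libraries. The summed level of 6 endothelial markers there was 1446, against 5493 to 6532 in hDISC1AA/+ and 5949.6 and 7320 in the other WT libraries. In hDISC1AA/+ replicate 1 mitochondrial transcripts took 1.94% of the reads, with 5.27% to 6.05% in the remaining hDISC1AA/+ libraries and 5.14% to 6.94% in WT. The summed level of 6 astrocyte markers was 122508 to 159702 in hDISC1AA/+, lowest in replicate 1, and 149290 to 222451 in WT, highest in replicate 1. That of 4 olfactory bulb markers was 664 in hDISC1AA/+ replicate 1 and 2919 to 7514 in the remaining hDISC1AA/+ libraries, and 1239 in WT replicate 1 and 3159 and 4715 in the remaining WT libraries. A replicate number is only a name here and pairs no samples. For the receptors, results that rest on these 2 libraries are given with and without them.

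Ephb6 and Epha4 made up most of the summed level of the 10 genes in both genotypes. The 4 other Eph receptor genes, given below, are not in this sum. To compare genes, levels were divided by the length of the merged annotated exons. Ephb6, the kinase-dead class B receptor, had 1800 ± 393 normalized counts per kb in hDISC1AA/+ and 1639 ± 42.0 in WT (SD, n = 4 and 3). Epha4, which steers axons and acts on dendritic spines in adult cortex and hippocampus, had 1304 ± 126 per kb in hDISC1AA/+ and 1313 ± 181 in WT. Below them came a middle group of Epha7 (342 ± 30.9 per kb in hDISC1AA/+ and 374 ± 10.1 in WT), Epha10 (318 ± 58.6 and 335 ± 18.6) and Epha5 (259.7 ± 39.2 and 329 ± 24.99). Next were Epha6 (161 ± 28.6 per kb in hDISC1AA/+ and 214 ± 31.0 in WT) and Ephb1 (179 ± 22.8 and 202 ± 23.3). Ephb2 (60.6 ± 15.7 per kb in hDISC1AA/+ and 62.9 ± 9.82 in WT), Epha3 (48.8 ± 17.6 and 56.8 ± 3.84) and Epha8 (64.4 ± 16.6 and 52.1 ± 20.2) were lowest. Within the last 3, and between Epha6 and Ephb1, the ranges of the libraries overlapped in both genotypes, so their order was not resolved. In the middle group Epha5 overlapped Epha10 in both genotypes, and Epha7 lay above Epha10 in all WT libraries but not in all hDISC1AA/+ libraries.

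The order at the top depended on which length was used. Per kb of the longest annotated transcript, Epha4 had 1660 ± 160 in hDISC1AA/+ and 1671 ± 230 in WT, and Ephb6 had 1806 ± 394 and 1644 ± 42.2, so the order of the first 2 genes in WT turned round. On this scale their libraries overlapped in both genotypes, whereas per kb of merged exons all libraries of Ephb6 lay above those of Epha4. Epha5, whose merged exons span 16739 bases but whose longest transcript has 7328, had 593 ± 89.5 per kb in hDISC1AA/+ and 751 ± 57.1 in WT on that scale. Epha5 then lay above Epha7 and Epha10 in all WT libraries, whereas the 3 genes overlapped in hDISC1AA/+ and their order was not resolved there.

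Ephb6 alone gave 39.4% ± 5.47 of the summed level per kb of the 10 genes in hDISC1AA/+ and 35.8% ± 1.24 in WT. Together with Epha10 it gave 46.4% ± 5.80 in hDISC1AA/+ and 43.2% ± 1.58 in WT, so the 2 genes without the aspartate codon held a large part of the pool. Per kb of the longest transcript this share was 39.8% ± 5.75 in hDISC1AA/+ and 36.4% ± 1.15 in WT. The share of Ephb6 was 47.5% in hDISC1AA/+ replicate 1 and 35.8% to 38.0% in the remaining 3 hDISC1AA/+ libraries, against 34.5% to 36.9% in WT. Apart from hDISC1AA/+ replicate 1 the shares of the genotypes overlapped.

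**Figure D1:**
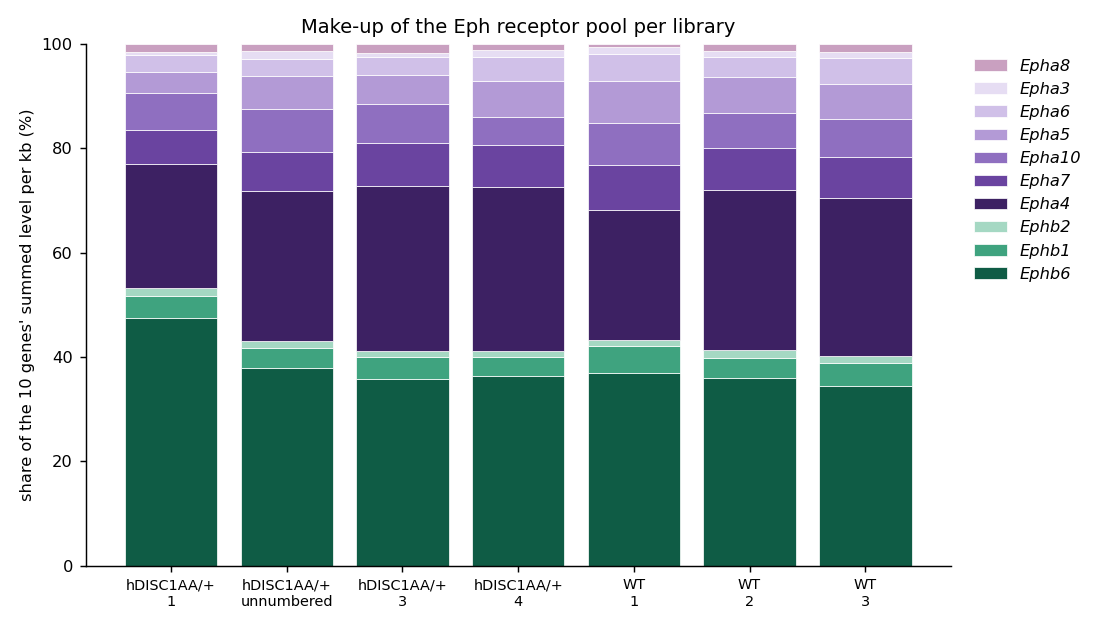
Share of each receptor gene in the summed level per kb of the 10 genes (vertical axis, %), 1 stacked bar per library, hDISC1AA/+ left and WT right; green is class B and purple class A. Ephb6 takes 35.8% to 47.5% in hDISC1AA/+ and 34.5% to 36.9% in WT, with its highest share in hDISC1AA/+ replicate 1.

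No Eph receptor passed the threshold between hDISC1AA/+ and WT. Differences were tested with limma (moderated linear models) on log2(normalized count + 1) over 17670 genes, with a Benjamini-Hochberg adjusted p under 0.05 as the threshold. It called 0 of the 10 receptors and 0 genes in all (0% of those tested, smallest adjusted p = 0.974) and it gave an unadjusted p under 0.05 for 2 of the 10 receptors and 431 genes (2.44%), of which both receptors and 229 genes (1.3%) were lower in hDISC1AA/+. edgeR and DESeq2 on the recovered reads also called 0, with 458 and 510 at an unadjusted p under 0.05. The log2 difference, hDISC1AA/+ minus WT, was below 0 for 8 of the 10 receptors and for 52.2% of all genes tested. Its median was -0.11 over the receptors and -0.0092 over all genes. The 95% confidence interval lay within 2-fold in either direction for 9 of the 10 receptors (77.4% of all genes) and within 1.5-fold for 6 of them (54% of all genes).

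Among class A, Epha6 and Epha5 had the most negative log2 differences between hDISC1AA/+ and WT. Epha5, a receptor that guides cortical and retinal axons (chr5:84054761-84417382, minus strand), had 3513, 4403, 4360 and 5115 normalized counts in hDISC1AA/+ replicate 1, the unnumbered library, replicate 3 and replicate 4, and 5983, 5326 and 5206 in WT replicates 1 to 3. The highest hDISC1AA/+ library lay just below the lowest WT library, so the groups did not overlap. It was the only one of the 10 of which this was true, and 5.04% of all genes tested showed it (2.84% with hDISC1AA/+ lower). The log2 difference was -0.35 (95% CI -0.65 to -0.05; limma unadjusted p = 0.0252, adjusted p = 0.974). A two-sided exact permutation test, with 35 divisions of the libraries and a smallest possible p of 0.0286, gave p = 0.0571. Without hDISC1AA/+ replicate 1 and WT replicate 1, its lowest and highest libraries, the log2 difference was -0.19. With GC content and transcript length regressed out it was -0.14, and the groups then overlapped. The corrected log2 levels were 12.02 to 12.35 in hDISC1AA/+, highest in replicate 1, and 12.18 to 12.48 in WT. The summed astrocyte markers had their lowest and highest values in the same 2 libraries. Slc1a2 gave most of that sum (88995 of 122508 in hDISC1AA/+ replicate 1), and Gfap (3095) and Aldh1l1 (1586) were instead lowest in WT replicate 2. All 6 astrocyte genes had a log2 difference below 0, as did all 8 oligodendrocyte and all 5 microglial markers, but 0 of 6 endothelial markers. The oligodendrocyte sum stood out only in WT replicate 1, as given above. The part of these cell types in the Epha5 value was not tested.

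Epha6, a receptor expressed mainly in the nervous system (chr16:59653483-60605531, minus strand), had 831, 720.4, 792 and 1069.9 normalized counts in the same order of hDISC1AA/+ libraries, and 1238, 943 and 1215 in WT. Replicate 4 of hDISC1AA/+ lay above WT replicate 2, so the groups overlapped. The log2 difference was -0.41 (95% CI -0.77 to -0.05; limma unadjusted p = 0.0292, adjusted p = 0.974; exact permutation p = 0.0857). It was -0.34 without hDISC1AA/+ replicate 1 and WT replicate 1, and -0.42 after the GC and length correction. Gm9017, a gene on the opposite strand, shares 107 bases of exon with Epha6, and its reads cannot be told apart without strand information.

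Epha3 and Epha7 are further receptors of axon mapping, and Epha7 also acts on dendrites of cortical neurons. Epha3 (chr16:63543534-63864175, minus strand) had 228, 544, 377 and 547 normalized counts in hDISC1AA/+ and 465, 530.4 and 485 in WT. Replicates 1 and 3 of hDISC1AA/+ lay below the WT range and the other 2 above it (log2 difference -0.30, 95% CI -0.95 to 0.35; limma adjusted p = 0.974), and without both replicates numbered 1 the difference was -0.072. Epha7 (chr4:28813131-28967499, plus strand) had 3166, 3078, 3726 and 3533 in hDISC1AA/+ and 3785, 3706 and 3586 in WT. Replicates 1 and 4 and the unnumbered library of hDISC1AA/+ lay below all WT libraries, and replicate 3 lay within their range (log2 difference -0.13, 95% CI -0.36 to 0.09). With GC content and length regressed out the value for Epha7 was 0.027.

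The most abundant class A receptor showed the smallest difference. Epha4 (chr1:77367185-77515088, minus strand) had 9624, 9684, 11645 and 11069 normalized counts in hDISC1AA/+ and 8898, 11497 and 11334 in WT. WT replicate 1 was the lowest of all 7 libraries, and both groups spread over the same range. The log2 difference was -0.0049 (95% CI -0.28 to 0.27; limma adjusted p = 0.998), an interval that leaves out a change of 1.5-fold.

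Epha8 and Epha10 complete the class. Epha8, a receptor of commissural axons of the midbrain (chr4:136929419-136956816, minus strand), had 386, 252, 353 and 223 normalized counts in hDISC1AA/+ and 138, 279 and 319 in WT. It was the class A gene with a positive log2 difference (0.36, 95% CI -0.35 to 1.06; limma adjusted p = 0.974), and WT replicate 1 was the lowest of all 7 libraries. Without WT replicate 1 the difference was -0.013. That library was also low in endothelial markers and high in oligodendrocyte markers, as given above, and the part of these in the Epha8 value was not tested. In bulk tissue, fewer cells of a type and less RNA per cell cannot be told apart. Epha10 (chr4:124880899-124917800, plus strand) had 2583, 2480 and 2444 in hDISC1AA/+ replicate 1, the unnumbered library and replicate 3, and 1666 in replicate 4. In WT it had 2535, 2269.8 and 2435. Replicate 4 of hDISC1AA/+ lay below all WT libraries, and the other hDISC1AA/+ libraries lay within the WT range or, for replicate 1, just above it (log2 difference -0.09, 95% CI -0.45 to 0.26), and without replicate 4 the difference was 0.053. Epha10 shares 79 bases of exon with 1700125G02Rik on the opposite strand.

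Among class B, hDISC1AA/+ replicate 1 was the highest library for Ephb2 and Ephb6 but not for Ephb1. Ephb1, which routes retinal axons at the optic chiasm (chr9:101922128-102354693, minus strand), had 1456, 1107, 1311 and 1152 normalized counts in hDISC1AA/+ and 1579.5, 1253 and 1413 in WT. The groups overlapped (log2 difference -0.17, 95% CI -0.47 to 0.12; limma adjusted p = 0.974). Gm26846 on the opposite strand shares 152 bases of exon with it. Ephb2, which binds NMDA receptors at excitatory synapses (chr4:136647539-136835988, minus strand), had 1053, 652, 728 and 621 in hDISC1AA/+ and 664, 911 and 803 in WT. Its highest library was hDISC1AA/+ replicate 1, and of the other hDISC1AA/+ libraries 2 lay below the lowest WT value and 1 within the WT range. The log2 difference was -0.075 (95% CI -0.52 to 0.37) with all libraries. It was -0.36 without both replicates numbered 1 (limma unadjusted p = 0.00969, adjusted p = 0.9997, with a lowest of 0.484 over all alternatives tried). In that comparison 580 of 17374 genes had a limma unadjusted p under 0.05. Ephb6 (chr6:41605482-41620509, plus strand) had 9011, 5965, 6185 and 6009.9 in hDISC1AA/+ and 6169, 6350.1 and 6034 in WT. Apart from replicate 1 all 6 values lay within a narrow band. The log2 difference was 0.11 (95% CI -0.22 to 0.45) with that library and -0.031 without it.

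**Figure D2:**
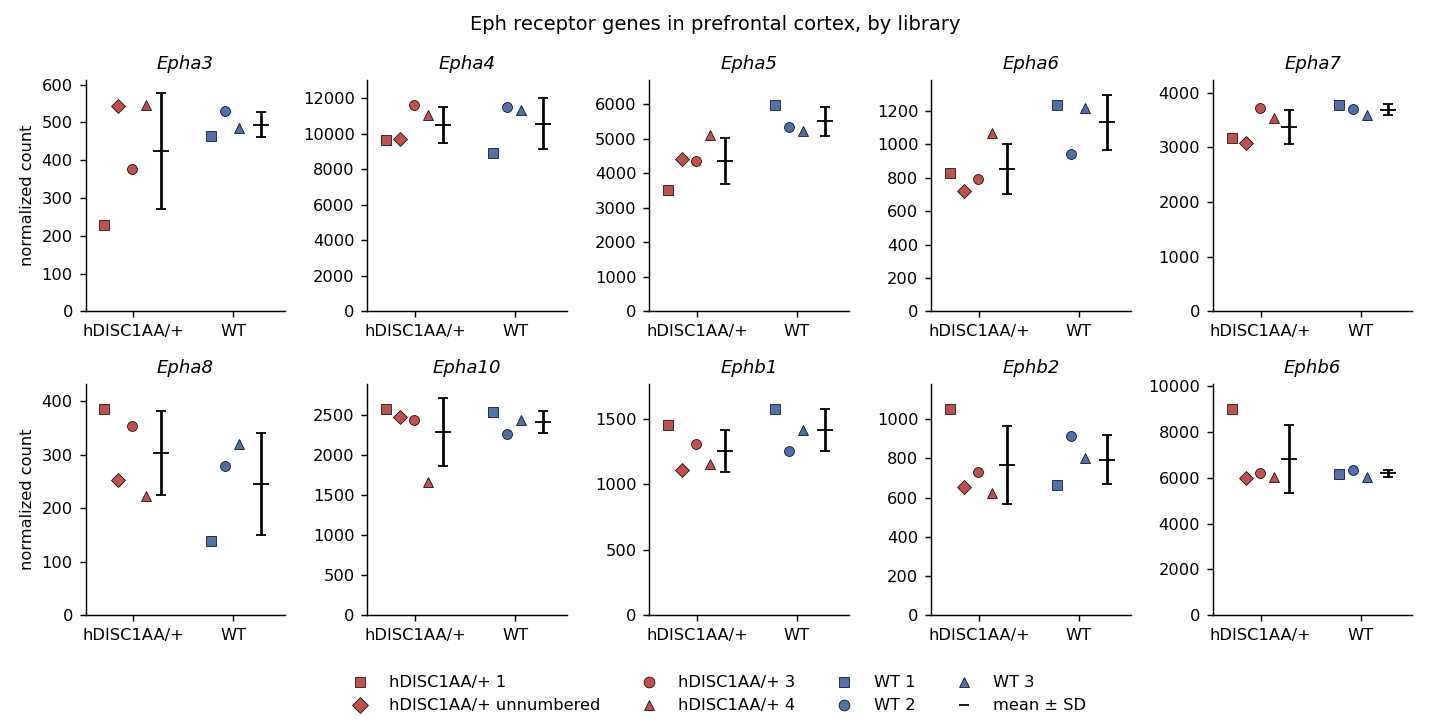
Normalized counts (vertical axis, linear from 0) of the 10 receptor genes, 1 panel per gene, with 1 point per library (4 hDISC1AA/+ left, 3 WT right) and bars for the mean and SD of each group. Only for Epha5 do the groups not overlap, with 3513 to 5115 in hDISC1AA/+ and 5206 to 5983 in WT. Replicate 1 of hDISC1AA/+ is the lowest library for Epha3 and the highest for Ephb2 and Ephb6, and replicate 4 is the lowest for Epha10.

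The gap between class A and class B differed between genotypes by less than the spread between the hDISC1AA/+ libraries, but by more than that between the WT libraries. The mean log2 difference was -0.13 over the 7 class A genes (6 below 0) and -0.045 over the 3 class B genes (2 below 0), and it was 0.010 over all genes tested. With GC content and length regressed out both class means were -0.063. The class B mean was -0.17 without hDISC1AA/+ replicate 1, and it was 0.014 without replicate 4 and likewise without the unnumbered library. Per library, the mean log2 level of class A minus that of class B was -0.64, 0.014, -0.052 and 0.076 in hDISC1AA/+ replicate 1, the unnumbered library, replicate 3 and replicate 4. It was -0.13, -0.071 and 0.018 in WT. The lowest value, in hDISC1AA/+ replicate 1, was set apart from the other 6 by a wide gap, and the highest was in hDISC1AA/+ replicate 4. The group means were -0.15 ± 0.33 in hDISC1AA/+ and -0.062 ± 0.076 in WT (SD, n = 4 and 3). Their difference of -0.089 is smaller than the SD within hDISC1AA/+, which holds the low value of replicate 1, and larger than the SD within WT. Without hDISC1AA/+ replicate 1 the difference was 0.075, and after the GC and length correction it was 5.08e-05. No p-value is given for the class means, because the members were chosen with results of these data known.

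The number of receptors with a log2 difference below 0, which was 8 in the comparison of all libraries, depended on the setting. It was 6 with GC content and length regressed out, 6 without hDISC1AA/+ replicate 4 and 6 without WT replicate 2. It was 7 with upper-quartile scaling, without the unnumbered library and without WT replicate 3, and 9 with array weights and without WT replicate 1. Without both replicates numbered 1 it was 10, among 17374 genes of which 49.98% were below 0. The mean was then -0.15 for class A and -0.19 for class B. No receptor passed in that comparison either. Limma gave an unadjusted p under 0.05 there for 580 of the 17374 genes, and Ephb2 was the 1 receptor among them.

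**Figure D3:**
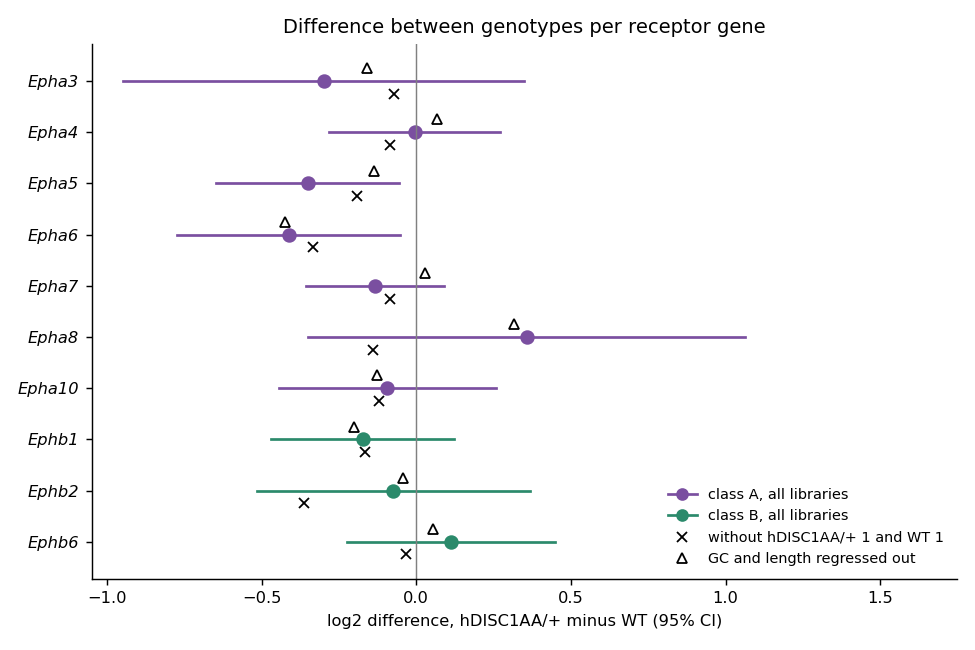
Log2 difference between genotypes (horizontal axis, hDISC1AA/+ minus WT) for each receptor gene, with limma's 95% confidence interval, and beside it the value without hDISC1AA/+ replicate 1 and WT replicate 1 (crosses) and with GC content and transcript length regressed out (triangles). The interval leaves out 0 for Epha5 (-0.65 to -0.05) and Epha6 (-0.77 to -0.05), and all 10 crosses but only 6 triangles lie below 0.

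The classes also differ in base composition, and some libraries followed it. The GC content of the longest transcript was 40.1% to 48.0% for Epha3, Epha4, Epha5, Epha6 and Epha7 and 52.7% to 61.3% for Ephb1, Ephb2, Ephb6, Epha8 and Epha10, so all 3 class B genes were among the 5 above 50%. In hDISC1AA/+ replicate 1 all 5 genes above 50% lay above the mean of the other 6 libraries and all 5 below 50% lay under it. The extremes were Epha8 (0.62 on the log2 scale) and Epha3 (-1.09). In hDISC1AA/+ replicate 4 the split was the opposite, with all 5 above 50% under the mean of the others and all 5 below 50% above it. Over the 10 genes, Pearson's r between GC content and the deviation was 0.86 in hDISC1AA/+ replicate 1, where it was 0.52 over 17543 genes, and -0.81 in replicate 4, where it was -0.25 over those genes. For the genotype difference itself r was 0.70 over the 10 genes and 0.25 over all. These correlations run across genes of the same libraries and are given as a description. With GC content and length regressed out, the log2 difference was -0.16 for Epha3, 0.32 for Epha8, -0.13 for Epha10, -0.20 for Ephb1, -0.042 for Ephb2 and 0.055 for Ephb6, and 0.067 for Epha4. Those of Epha3, Ephb2 and Ephb6 were thus nearer to 0 by over 1.5 times, as was that of Epha5 (-0.14). That of Epha8 was slightly nearer to 0, and those of Epha6 (-0.42), Epha10 and Ephb1 were farther from it. Those of Epha4 and Epha7 (0.027) changed sign. The correction took out transcript length as well, and the part of base composition in the differences was not tested beyond it.

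**Figure D4:**
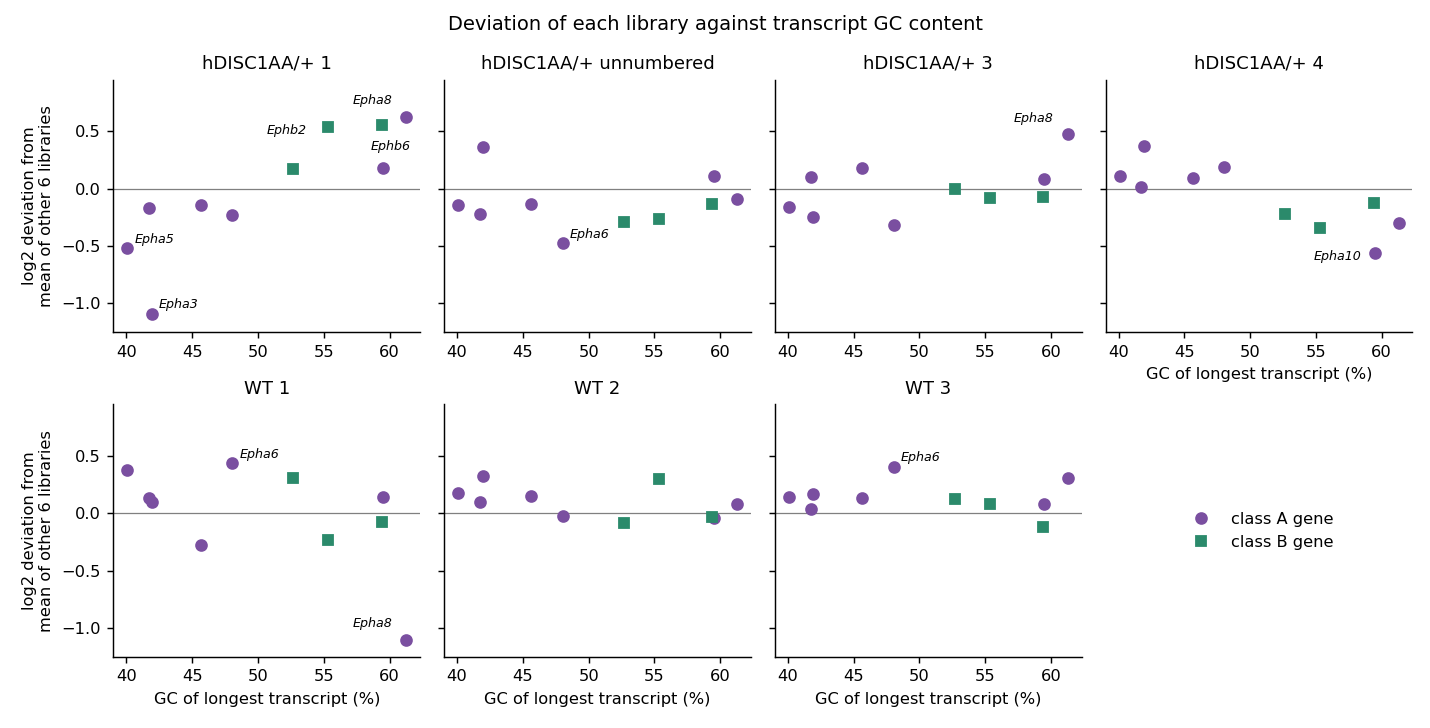
Log2 deviation of each receptor gene from the mean of the other 6 libraries (vertical axis) against the GC content of its longest transcript (horizontal axis, %), 1 panel per library, hDISC1AA/+ above and WT below; names mark deviations over 0.4. The points climb with GC content in hDISC1AA/+ replicate 1 (r = 0.86) and descend in replicate 4 (r = -0.81).

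Some pairs of receptors varied together across libraries. Over the 7 libraries the highest Pearson's r were those of Ephb2 with Ephb6 (0.79), Epha3 with Epha5 (0.77) and Epha5 with Epha6 (0.75), and the lowest was that of Epha3 with Ephb6 (-0.92). Without both replicates numbered 1 these were 0.80, 0.50, 0.84 and -0.27. Only 5 libraries remain there. The pair of Ephb2 and Ephb6 and the pair of Epha5 and Epha6 kept high values, and the opposition of Epha3 and Ephb6 was weaker. Other pairs changed as well. Epha4 with Epha7 went from 0.38 to 0.997, the highest of the 5 libraries, and Epha8 with Ephb1 from -0.15 to 0.82. The lowest was then Epha3 with Epha8 (-0.86, from -0.53). In hDISC1AA/+ replicate 1 Epha3 had its lowest count of the 7 libraries (228) and Ephb6 its highest (9011). WT replicate 1, with 465 and 6169, lay within the range of the 5 remaining libraries for both genes. Leaving out only 1 of the 2 was not tested for this pair. Its Spearman rank correlation over all 7 libraries was -0.75. The genes outside the family most like Epha5 were Apc (r = 0.992), a regulator of beta-catenin and microtubules, Fam98b (0.991) and Apoo (0.985), a protein of the mitochondrial inner membrane. Those most like Ephb1 were Mettl11b (0.992), Nt5dc3 (0.991) and Srcin1 (0.985), an inhibitor of the kinase Src. All pairs share library, depth and base composition as sources of variation, and the genes were picked as the highest of 17670 over 7 libraries.

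The promoters of the 10 genes, taken from RefSeq (GRCm38.p6) as 250 bases before to 50 after the start, were rich in CpG. The 11 promoters listed, with 2 starts for Epha7, held 14 (Ephb1) to 56 (Epha8) CpG dinucleotides, against a median of 7 over 32851 promoters. The letters CTTTGA, the core of the motif bound by the TCF and LEF partners of beta-catenin, were sought on both strands. They were in none of the 11 and in 16% of all promoters of that length. The 2 Epha7 promoters overlap. GC content was 55.67% (Ephb1) to 84.33% (Epha8) in the 11, against a median of 52.67% over all promoters. Promoters of like GC content were not compared, and with so few promoters the absence is given only as a description.

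None of the other Eph receptors or their ligands passed the threshold. Of the 4 other Eph receptor genes 1 had a log2 difference below 0 and 0 passed. Ephb3 had 1569.8 ± 271 normalized counts in hDISC1AA/+ and 1560.3 ± 151 in WT, and Ephb4, a receptor of venous endothelium, had 249.7 ± 40.2 and 232 ± 96.6, lowest in WT replicate 1 (131). Epha1 (16.0 ± 6.61 in hDISC1AA/+ and 13.5 ± 3.20 in WT) and Epha2 (57.1 ± 7.19 and 55.8 ± 13.9) were low in both genotypes. Of 8 ephrin genes 7 were tested, 2 had a difference below 0 and 0 passed, with a median of 0.014. Those with the smallest p were Efna3 (1342 ± 135 in hDISC1AA/+ and 1225 ± 114 in WT), Efna1 (92.6 ± 50.2 and 59.2 ± 11.2) and Efnb3 (1882 ± 299.8 and 2107 ± 539). Efna4 had 9.96 ± 4.46 in hDISC1AA/+ and 7.66 ± 1.10 in WT and was not tested.

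Genes that carry the signal inside the cell or cut the receptor had 22 of 34 members below 0, against 52.2% of all genes, with a median of -0.069, and 0 passed. Crk, an adaptor that binds phosphorylated tyrosines, had 5190.3, 5600.3, 6195 and 5857 normalized counts in hDISC1AA/+ and 6757, 6482 and 6522 in WT, with no overlap between the groups (log2 difference -0.21; limma unadjusted p = 0.0473, adjusted p = 0.974). Itsn1, an exchange factor for CDC42 that works with EphB2 in spines, had 6943, 6209, 6540.2 and 6469.7 in hDISC1AA/+ and 7578, 7226 and 7272 in WT. There was again no overlap (log2 difference -0.17, limma unadjusted p = 0.0692), which 5.04% of all genes tested showed. WT replicate 1 was the highest library for both genes, and hDISC1AA/+ replicate 1 was the lowest for Crk. Differences without these libraries are not given for the list genes. Arhgef15, which encodes ephexin-5, had 597 ± 42.3 and 502 ± 68.9 (log2 difference 0.26), lowest in WT replicate 1 (433), the library low in endothelial markers.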

How the data were processed

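The authors deposited 1 table with a signal per gene and library: gene counts divided by 1 size factor, since all values above 0 were whole multiples of the column's smallest step (100% in all 7 columns, tolerance 0.01 reads). Dividing by the step recovered whole reads. Build mm10, DESeq2 1.26.0, HTSeq 0.6.1, HISAT2 2.1.0 and Trimmomatic 0.39 are listed with no role or order, per the submitters' processing notes. The sources used here give neither strand setting nor annotation. A line break between identifier and values affected 3 genes, which were not used. Of 43626 identifiers 42545 matched GENCODE M21 (GRCm38). Of the 10 receptors' 50-base words at most 1.55% occur in another gene, and none in another of the 10.

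Libraries were grouped by labelled genotype. Because the values were not raw counts, limma 3.58.1 was the main test (trend, robust variances, log2(value + 1), genes with at least 10 in at least 3 libraries), and edgeR 4.0.16 and DESeq2 1.42.0 on recovered reads were alternatives, with other scalings, filters and pseudocounts, array weights, a GC and length correction (splines, 5 degrees of freedom) and libraries left out. Fold changes understate changes of low genes. Calculations were tested on simulated counts. Of the genes given a change there, 17.9% were called at 1.5-fold, 76.1% at 2-fold and 97.0% at 4-fold. Most 1.5-fold changes were thus missed in the simulation. The members and lists were chosen with earlier results of these data known. Named were all 14 Eph receptors, the 3 genes of smallest p per list and, for the receptor of smallest p in each class, the 3 most correlated genes.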

Additional observations from a re-analysis of the deposited data

Results flagged for a closer look

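The 10 receptors, the class A and class B means and the gap between the classes were screened over the 4 hDISC1AA/+ libraries with Dixon's test (critical value 0.829). For 2 receptors 1 value lay far from the other 3. The critical value is set so that chance gives this in about 1 of 20 groups of normally distributed values. The share over all genes tested in these libraries is not given, so the 2 flags cannot be called more than usual. Ephb6 had 9011 normalized counts in hDISC1AA/+ replicate 1 (ratio 0.928), and Epha10 had 1666 in hDISC1AA/+ replicate 4 (ratio 0.848). The first is a high value and the second a low one, in different libraries. The GC content is 59.4% for Ephb6, 59.5% for Epha10 and 61.3% for Epha8, which was not flagged (ratio 0.202). The part of GC content in the flags was not tested.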

How the results depend on the processing

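No gene passed under any of the 19 alternatives. The smallest adjusted p of a receptor was 0.392, for Epha6 with limma array weights, which also gave an unadjusted p under 0.05 for 1823 genes, against 431 in the reported comparison and 218 without the unnumbered library. The log2 differences of Epha3, Epha5, Epha6 and Ephb1 were below 0 under all 19, ranging from -0.45 to -0.0071, -0.43 to -0.11, -0.54 to -0.32 and -0.26 to -0.091. For the other receptors the sign changed under some. Upper-quartile scaling gave 0.015 for Epha4, and array weights gave -0.099 for Epha8. With GC content and length regressed out Epha4 was at 0.067 and Epha7 at 0.027. Without both replicates numbered 1 Epha8 was at -0.14 and Ephb6 at -0.032, and with the GC and length correction added, an alternative chosen after seeing the data, they were at -0.097 and -0.015. With each library left out in turn Epha4 ranged from -0.12 to 0.060, Epha8 from -0.013 to 0.59, Epha10 from -0.16 to 0.053, Ephb2 from -0.24 to 0.031 and Ephb6 from -0.031 to 0.17. The class B mean ranged from -0.17 to 0.014 in these, and class A minus class B from -0.16 to 0.075. The cause was not tested. No paired analysis was possible because the labels give no number that 2 samples share, and the replicate numbers used here only follow the order of the records.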
